A study of Homo sapiens with 12 samples.

Results

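Heat shock and cytosolic chaperone genes were followed in camptothecin-treated human leukemia cells labelled as SLFN11 knockout and as SLFN11-positive parent. The set held 48 genes of 43828 gene places in the tables, chosen by gene name. They were the HSP70, HSP110 and HSP90 chaperones with their partners, J proteins, BAG and other exchange factors, mitochondrial chaperones, small heat shock and HSPB-named genes, the heat shock factors HSF1 and HSF2, and subunits of the chaperonin TRiC. All 48 had exon reads above the filter on low counts. HSPA1A and HSPA1B are near-identical copies and HSPA1L overlaps HSPA1A, so how reads were divided among them is uncertain.

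The cells were CCRF-CEM, a T lymphoblast leukemia line, and RNA was sequenced from 4 groups of 3 libraries. KO CPT libraries came from cells labelled as SLFN11 gene knockout that received 100 nM camptothecin (CPT) for 4 h, and KO control libraries came from the same knockout cells with DMSO. Parent CPT libraries came from SLFN11-positive parent cells, labelled wild-type, with 100 nM camptothecin for 4 h, and parent control libraries came from parent cells with DMSO. Camptothecin traps topoisomerase I on DNA and blocks transcription and replication forks, and SLFN11 is a putative helicase linked to sensitivity to such drugs. Nothing in the labels tells by what method SLFN11 was knocked out, if the KO cells are 1 clone, or if replicates grew as separate cultures. The p-values therefore reflect the spread among the sequenced libraries alone, and this spread may be technical.

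Chaperones bind unfolded proteins and help them fold. In the heat shock response, the transcription factor HSF1 binds heat shock elements, inverted repeats of a short GAA unit, and switches on HSP70, HSP90, HSP110 and J protein genes. Many members are also made without stress, and HSPA8, HSP90AB1 and the TRiC subunits serve the folding of newly made proteins in growing cells.

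Exon reads per library ran from 42439957 to 63606344 in 11 libraries and reached 135592046 in parent control replicate 1. This deepest library also differed most from its mates: over 16157 genes, the SD of the log2 difference to each other parent control was 0.443 and 0.445, while other pairs of one group gave 0.202 to 0.291. Its value was above both other parent controls for 41 of the 48 members, with a median log2 difference of 0.28. How many of all genes stood above both was not counted, so the 41 cannot be read as particular to these members. The counts of each comparison that uses parent controls, and the changes of some members, are therefore also given without this library. SLFN11 itself was still transcribed in the cells labelled knockout, at 88.4 to 91.7 CPM in KO CPT libraries and 85.9 to 88.7 CPM in KO controls, against 119 to 123 CPM in parent CPT libraries and 107 to 117 CPM in parent controls (untreated log2 difference −0.37, edgeR adjusted p = 1.33e-04). The labels do not give the disrupted part of the gene, so this level does not check the knockout. CPM are counts per 1000000 reads of the library size adjusted by TMM, a scaling that assumes most genes do not change. All 10 T lymphoblast markers were at 1 CPM or more in all 12 libraries, with summed levels of 1451 to 1523 CPM in KO CPT libraries, 1882 to 1883 CPM in KO controls, 1179 to 1210 CPM in parent CPT libraries and 1664 to 1908 CPM in parent controls. Myeloid and erythroid markers each stayed below 1 CPM, and of the B-lineage markers CD79A and CD79B were above it while PAX5 was near 0.

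Camptothecin lowered part of these genes in KO cells. By exon reads, 15 of the 48 members fell and 2 rose at an adjusted p below 0.05 in edgeR's quasi-likelihood test, where 9.28% of all 23546 genes tested fell and 7.3% rose. The members' median log2 change (CPT over control) was −0.18, against 0.02 over all genes tested. The falls lay in 5 of 8 HSP70 genes, 2 of 3 HSP110 genes, 2 of 8 genes of HSP90 and its partners, 3 of 7 J proteins, BAG3, HSPD1 and CCT4, and BAG1 and HSPA14 rose. HSPA1A, HSPA1B and HSPA6 fell at least 2-fold. The groups did not overlap for 36 of 48 members, a state that held for 38.5% of all genes. Calls for HSPA1A, HSPA1B, HSPA6, CHORDC1, DNAJB1, DNAJB6 and BAG3 were kept under every alternative in which each could be tested (HSPA6 had no exon reads in stretches of its own), and the other 10 of the 17 were lost under at least 1, HSPA4 and HSPD1 under 14 of 20. Leaving out single libraries moved the number of falls between 8 and 27. The 27 came without parent control replicate 1, which enters this comparison through the shared estimate of the spread and the scaling. In that fit 5 rose, and the median was −0.17. Of all genes, 3483 then fell and 3157 rose, against 2184 and 1718 with that library.

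In parent cells camptothecin lowered most of the set. There 30 members fell and 5 rose, where 17.1% of all genes tested fell and 16.8% rose, with a members' median log2 change of −0.41 against 0.01 over all genes. The falls ran through 5 of 8 HSP70 genes, 2 of 3 HSP110 genes, all 8 of HSP90 and its partners, 4 of 7 J proteins, 2 of 4 mitochondrial chaperones and 6 of 7 TRiC subunits. HSPA1A, HSPA1B, HSPA1L, HSPA6 and DNAJB1 fell at least 2-fold, and DNAJB2 rose by more than 2-fold. The groups did not overlap for 37 of 48 members, against 44.8% of all genes. Calls were kept for 30 of the 35 under every alternative in which they could be tested, the exceptions being FKBP4, DNAJA1, DNAJB4, BAG2 and CCT8. Without parent control replicate 1, 28 fell and 6 rose, at a median of −0.22. Of all genes, 4224 then fell and 4609 rose, against 4017 and 3961 with it. In these bulk samples, fewer cells of a type and less RNA per cell cannot be told apart. The summed T lymphoblast markers were also lower in CPT libraries than in controls of both genotypes, and their part in the result was not tested.

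The 14 members that fell in both were 14 of the 15 that fell in KO cells and 14 of the 30 that fell in parent cells. How many of all genes fell in both was not counted, so this overlap has no share to be read against. The 14 members were HSPA1A, HSPA1B, HSPA1L, HSPA6, HSPA4, HSPH1, CHORDC1, PTGES3, DNAJB1, DNAJB4, DNAJB6, BAG3, HSPD1 and CCT4. HSPA13 passed the test as lower in KO cells without passing it in parent cells, and 12 members passed in neither. Scaling by library size alone moved the median change of all genes to 0.17 in KO cells and 0.14 in parent cells, and that of the members to −0.03 in KO cells and −0.27 in parent cells. On that scale 78.6% of all called genes were higher in the KO response (44% with TMM) and 67.2% in the parent response (49.6% with TMM). The members then stood at 9 higher and 8 lower in KO cells and 7 higher and 26 lower in parent cells.

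**Figure D1:**
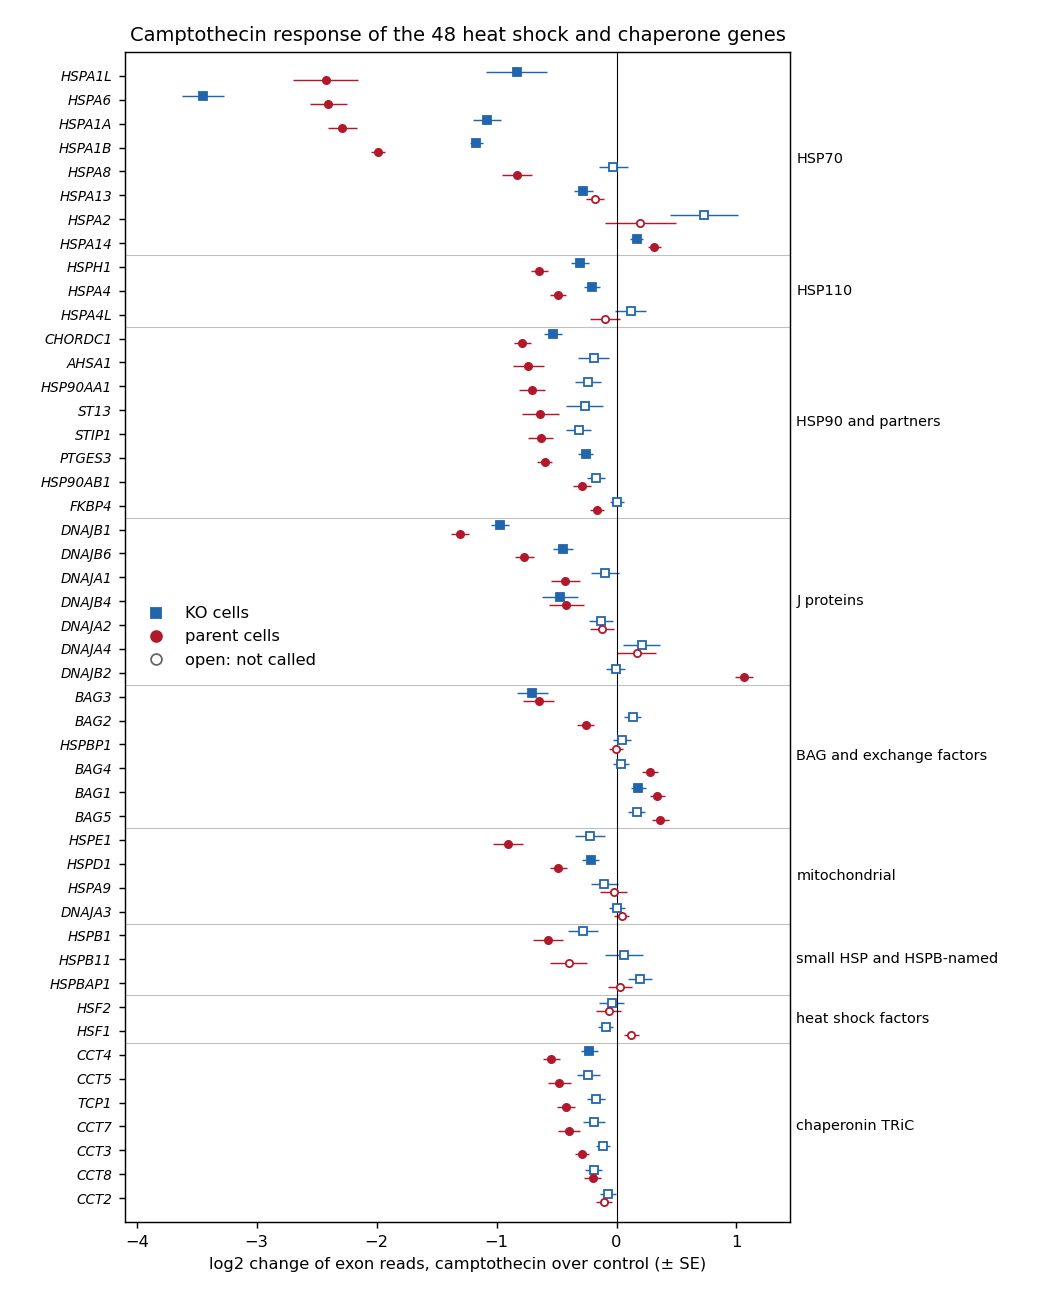
Fitted log2 change of exon reads after camptothecin over control for the 48 genes, in KO cells (blue squares) and parent cells (red circles), with SE bars from edgeR and open symbols where the adjusted p was 0.05 or more. Most parent values lie left of 0, from −2.42 for HSPA1L, and DNAJB2 stands alone to the right at 1.06.

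HSP70 genes held the largest falls of the set by exon reads in both kinds of cells. HSPA1A, a stress-inducible HSP70 gene without introns (chr6:31783290-31785722 in hg19), had 34.9, 34.8 and 35.3 CPM in KO CPT libraries, against 76.2, 72.6 and 73.4 CPM in KO controls. In parent cells HSPA1A had 11.5, 11.6 and 12.4 CPM with CPT, against 73.3, 51.23 and 48.2 CPM in controls. The groups did not overlap in either kind of cell, and the treated parent libraries were the lowest of all 12. The log2 change was −1.08 ± 0.12 in KO cells (SE, edgeR adjusted p = 1.00e-05), a 2.12-fold fall. In parent cells it was −2.29 ± 0.12 (edgeR adjusted p = 2.52e-09), a 4.88-fold fall. The KO response was thus smaller, by 1.21 ± 0.17 on the log2 scale (KO minus parent, edgeR adjusted p = 3.36e-04), and still by 0.99 without parent control replicate 1.

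HSPA1B (chr6:31795511-31798030), which encodes the same stress-inducible protein, followed the same order at higher counts. It had 105, 106 and 99.1 CPM in KO CPT libraries, against 239.5, 225 and 232 CPM in KO controls. The parent libraries held 57.6, 57.8 and 59.7 CPM with CPT, against 230.0, 236 and 228 CPM in controls. Here parent control replicate 1 lay between its 2 mates, and the untreated groups of both genotypes overlapped. HSPA1B fell by 2.25-fold in KO cells (log2 −1.17 ± 0.055, edgeR adjusted p = 2.59e-10) and by 3.96-fold in parent cells (log2 −1.99 ± 0.057, edgeR adjusted p = 3.41e-13), a difference of 0.82 ± 0.078 (edgeR adjusted p = 2.92e-06). The coding sequences of the 2 genes were 99.79% identical, with 4 mismatches in 1926 bases, so the split between them rests on how the authors' counting placed reads. Their sum was 134 to 141 CPM in KO CPT libraries and 298 to 316 CPM in KO controls, and 69.2 to 72.0 CPM in parent CPT libraries and 276 to 303 CPM in parent controls.

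HSPA1L, the testis-biased neighbour, had 8.32, 6.76 and 8.06 CPM in KO CPT libraries, against 15.4, 12.2 and 13.6 CPM in KO controls. In parent cells it had 3.04, 2.71 and 2.31 CPM with CPT, against 21.9, 10.9 and 10.1 CPM in controls. Its groups did not overlap. The fitted log2 changes were −0.83 ± 0.25 in KO cells (edgeR adjusted p = 0.0452) and −2.42 ± 0.27 in parent cells (edgeR adjusted p = 2.83e-05), with a difference of 1.59 ± 0.37 (edgeR adjusted p = 0.0260). Parent control replicate 1 was the highest library, and without it the difference was 1.13; leaving out 7 single libraries of the other groups, each in turn, ended the call. HSPA1L overlaps the start of HSPA1A, and 22.0% of its exon reads lay in stretches of its own; counted there, the log2 changes were −0.28 in KO cells, which was not called, and −1.36 in parent cells.

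HSPA6, a strictly stress-inducible HSP70 gene absent from rodents (chr1:161494035-161496680), fell more in KO cells than in parent cells. It had 0.675, 0.7602 and 0.585 CPM in KO CPT libraries, against 7.16, 6.56 and 8.50 CPM in KO controls. Parent CPT libraries had 1.36, 1.94 and 1.76 CPM, against 9.68, 8.66 and 8.36 CPM in parent controls. The treated KO libraries were the lowest of all 12 and overlapped no other group. HSPA6 fell 10.9-fold in KO cells (log2 −3.45 ± 0.18, edgeR adjusted p = 5.73e-10) and 5.29-fold in parent cells (log2 −2.40 ± 0.15, edgeR adjusted p = 4.23e-09), and the KO response minus the parent response was −1.04 ± 0.23 (edgeR adjusted p = 0.0113). These levels rest on 104 reads summed over the KO CPT libraries, 1108 over the KO controls, 302 over the parent CPT libraries and 1980 over the parent controls. All exon reads of HSPA6 lay where the annotated gene RP11-25K21.6 overlaps it, and its close copy HSPA7 was not analysed here.

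HSPA8, the constitutive cytosolic HSP70 that also uncoats clathrin vesicles, was the most abundant member. It had 3321, 3413 and 3056 CPM in KO CPT libraries, against 3340, 3320 and 3303 CPM in KO controls. The parent libraries had 2071, 2093 and 2068 CPM with CPT, against 4801, 3140 and 3136 CPM in controls. KO groups overlapped, whereas every treated parent library was below every other library. Its log2 change was −0.025 ± 0.12 in KO cells (edgeR adjusted p = 0.927) and −0.83 ± 0.13 in parent cells (edgeR adjusted p = 9.48e-05). The difference of 0.80 ± 0.18 (edgeR adjusted p = 0.0118) was 0.57 without parent control replicate 1 and was called under every alternative run.

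HSPA14, a ribosome-associated HSP70, rose in both kinds of cells, with log2 changes of 0.17 in KO cells and 0.31 in parent cells. HSPA13, a microsomal HSP70-like protein, had log2 changes of −0.28 in KO cells, where it fell, and −0.18 in parent cells, where it was not called. HSPA2, a testis-enriched HSP70, had log2 changes of 0.73 in KO cells and 0.20 in parent cells and was not called in either.

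**Figure D2:**
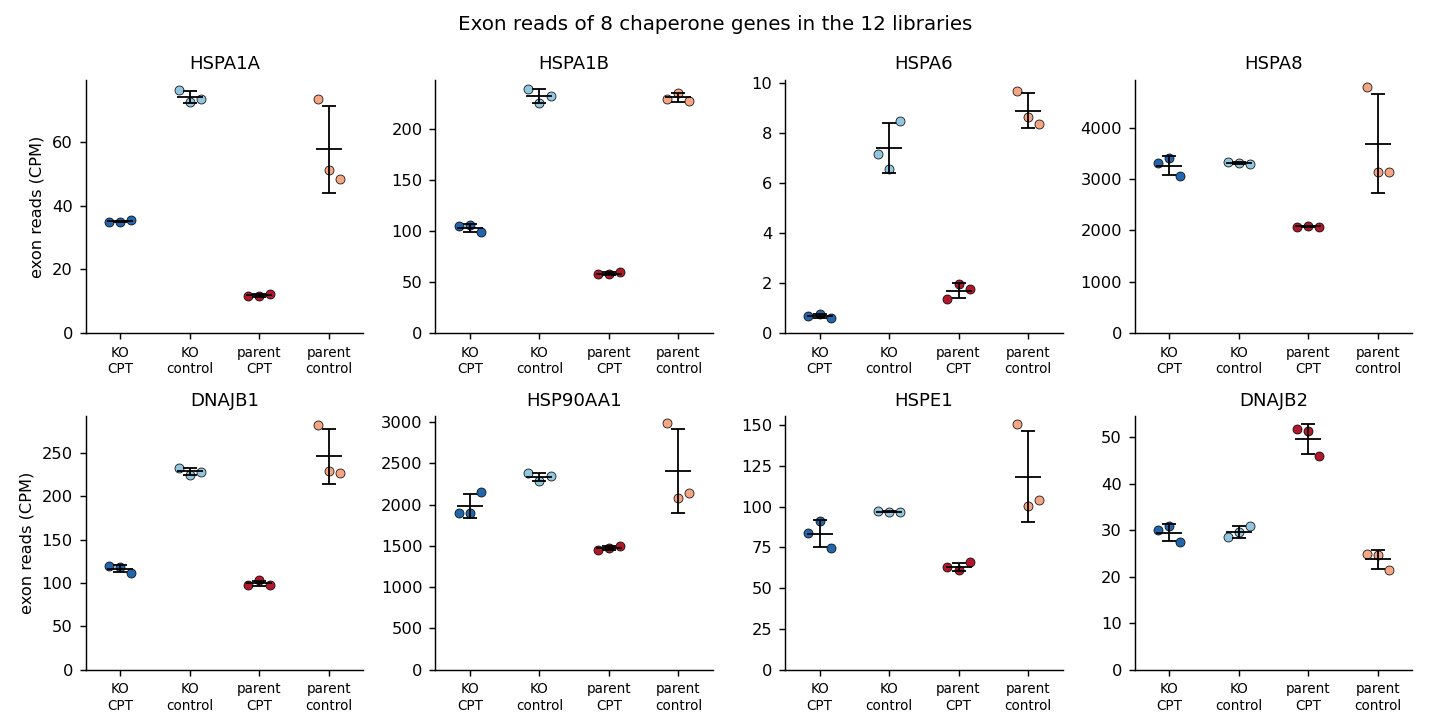
Exon reads in CPM of 8 genes in the 12 libraries, with points for libraries in order of replicate and bars for the mean and SD (n = 3); each axis starts at 0. HSPA1A, HSPA1B and HSPA8 were lowest in parent CPT libraries, HSPA6 was lowest in KO CPT libraries, and DNAJB2 was highest in parent CPT libraries.

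To set these changes beside the regulatory sequence, promoters of members were read from RefSeq (GRCh38.p14), where 42 of the 48 genes had an entry, running from 250 bases before the gene start to 50 after it; FKBP4, ST13, HSPA14, HSPB11, HSF1 and BAG4 had none. The 150 bases before the gene start are shown for the 4 HSP70 genes above, with bases of any 2 facing units, GAANNTTC or TTCNNGAA, in capitals. HSPA1A (chr6:31815393-31815542), HSPA1B (chr6:31827588-31827737) and HSPA6 (chr1:161524390-161524539) lie on the plus strand, and HSPA8 (chr11:123062137-123062286) lies on the minus strand.
HSPA1A: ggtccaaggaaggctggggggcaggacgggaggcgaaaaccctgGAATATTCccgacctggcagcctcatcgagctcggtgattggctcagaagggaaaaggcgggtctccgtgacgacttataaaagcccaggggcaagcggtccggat
HSPA1B: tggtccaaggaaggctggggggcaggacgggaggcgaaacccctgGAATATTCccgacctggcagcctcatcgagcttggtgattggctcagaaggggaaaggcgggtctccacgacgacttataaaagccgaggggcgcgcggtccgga
HSPA6: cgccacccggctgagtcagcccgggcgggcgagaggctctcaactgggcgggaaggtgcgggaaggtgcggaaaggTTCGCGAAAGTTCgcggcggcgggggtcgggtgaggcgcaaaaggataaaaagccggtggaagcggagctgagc
HSPA8: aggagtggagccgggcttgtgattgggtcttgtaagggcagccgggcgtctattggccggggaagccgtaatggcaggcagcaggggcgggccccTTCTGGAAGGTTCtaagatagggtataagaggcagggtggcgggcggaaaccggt
The HSPA1A and HSPA1B windows matched at 141 aligned bases with 8 mismatches, and each held the same single 2-unit match. HSPA6 and HSPA8 each carried 3 units in a row.

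HSP110 genes encode nucleotide exchange factors for HSP70. HSPH1 had 238, 238 and 251 CPM in KO CPT libraries, against 305, 303 and 290.1 CPM in KO controls. Its parent values were 175, 183 and 186 CPM with CPT, against 319, 270.3 and 260.4 CPM in controls. No groups overlapped within a genotype, and HSPH1 fell by 1.24-fold in KO cells (edgeR adjusted p = 0.00678) and 1.56-fold in parent cells (edgeR adjusted p = 2.51e-06). HSPA4 fell in both as well, with log2 changes of −0.21 in KO cells and −0.49 in parent cells. HSPA4L, at 7.09 ± 0.530 CPM (SD, n = 3) in parent controls, was not called in either response.

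All 8 genes of HSP90 and its partners fell in parent cells, and 2 of them fell in KO cells. Without parent control replicate 1, HSP90AA1, HSP90AB1, STIP1, AHSA1 and ST13 also passed as lower in KO cells, and FKBP4 did not. Of all genes, 3483 then fell in KO cells, against 2184 with that library. HSP90AA1, the inducible HSP90 of the cytosol, had 1904, 1897 and 2153 CPM in KO CPT libraries, against 2382, 2286 and 2343 CPM in KO controls. In parent cells it had 1448, 1473 and 1502 CPM with CPT, against 2991, 2081 and 2137 CPM in controls. Treated and untreated libraries did not overlap in either kind of cell, and KO CPT replicate 3 was the treated library nearest to its controls. The log2 change was −0.24 ± 0.11 in KO cells (edgeR adjusted p = 0.1596) and −0.70 ± 0.11 in parent cells (edgeR adjusted p = 7.57e-05). HSP90AB1, the constitutive HSP90, had 975, 975 and 901 CPM in KO CPT libraries, against 1075, 1061 and 1078 CPM in KO controls. In parent libraries it held 1045, 1035 and 1015 CPM with CPT, against 1426, 1170 and 1184 CPM in controls. Its fitted changes were log2 −0.17 in KO cells (edgeR adjusted p = 0.138) and −0.29 in parent cells (edgeR adjusted p = 0.00627), or −0.19 in parent cells without parent control replicate 1; the contrast between the 2 paralogs was not tested.

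CHORDC1, an HSP90 co-chaperone known as a heat-shock-responsive gene, had 89.2, 88.1 and 92.8 CPM in KO CPT libraries, against 135, 129.5 and 125 CPM in KO controls. Parent cells had 87.0, 86.9 and 90.0 CPM with CPT, against 172, 139 and 144 CPM without. The treated groups of both genotypes lay at the same level, below all controls. Its log2 change was −0.53 ± 0.072 in KO cells (edgeR adjusted p = 6.28e-05) and −0.78 ± 0.072 in parent cells (edgeR adjusted p = 2.98e-07), and the difference of 0.25 ± 0.10 was not called (edgeR adjusted p = 0.1702). PTGES3, the p23 co-chaperone, had 249.4, 253 and 263 CPM in KO CPT libraries, against 305, 306 and 305 CPM in KO controls. The parent values ran at 207, 202 and 195 CPM with CPT, against 334, 289 and 292 CPM in controls. PTGES3 fell in both, and less in KO cells, by 0.34 ± 0.090 on the log2 scale (edgeR adjusted p = 0.0319); leaving out any library of the other 3 groups ended that call, and the adjusted p ran from 8.04e-04 to 0.108 over the alternatives run. STIP1 and ST13, which link HSP70 to HSP90, AHSA1, which stimulates the HSP90 ATPase, and FKBP4, an immunophilin, fell in parent cells, at log2 −0.16 for FKBP4 to −0.73 for AHSA1 and were not called in KO cells, at −0.31 for STIP1 to 0.0017 for FKBP4. Without parent control replicate 1, the parent change of ST13 was −0.35, against −0.63 with it.

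J proteins bring clients to HSP70 and start its ATPase. DNAJB1, the main heat-inducible J protein, had 119, 119 and 112 CPM in KO CPT libraries, against 233, 225 and 228 CPM in KO controls. In parent cells DNAJB1 had 97.6, 103 and 97.6 CPM with CPT, against 283, 229 and 226 CPM in controls. No treated library of either genotype reached a control, and the falls were 1.96-fold in KO cells (log2 −0.97 ± 0.076, edgeR adjusted p = 1.03e-07) and 2.47-fold in parent cells (log2 −1.31 ± 0.077, edgeR adjusted p = 1.58e-09). The difference, 0.33 ± 0.11, was not called (edgeR adjusted p = 0.0775), unlike in the fit without parent control replicate 1, where it was 0.22. DNAJB6, which keeps aggregation-prone proteins soluble, had 85.7, 89.8 and 83.8 CPM in KO CPT libraries, against 121, 116 and 117 CPM in KO controls. Parent libraries held 72.3, 73.5 and 72.4 CPM with CPT, against 145, 112 and 115 CPM in controls. DNAJB6 fell in both, at log2 −0.45 in KO cells (edgeR adjusted p = 8.01e-04) and −0.77 in parent cells (edgeR adjusted p = 1.12e-06).

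DNAJB2, a J protein with ubiquitin-interacting motifs (chr2:220143988-220151621), was the member that rose most, and it rose in parent cells. It had 30.0, 31.0 and 27.5 CPM in KO CPT libraries, against 28.4, 29.5 and 31.0 CPM in KO controls. Parent CPT libraries had 51.7, 51.3 and 45.9 CPM, against 25.0, 24.7 and 21.4 CPM in parent controls. The 3 treated parent libraries were above all others, and the KO groups overlapped. The log2 change was −0.0080 ± 0.076 in KO cells (edgeR adjusted p = 0.961) and 1.06 ± 0.077 in parent cells (edgeR adjusted p = 1.90e-08), a difference of −1.07 ± 0.11 (edgeR adjusted p = 6.70e-06) that was called under every alternative run. All its exon reads lay in stretches of its own.

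DNAJA1, a farnesylated cytosolic J protein, had 325, 348 and 298 CPM in KO CPT libraries, against 355, 339 and 344 CPM in KO controls. Its parent values were 261, 261 and 257 CPM with CPT, against 446, 305 and 297 CPM in controls. The KO groups overlapped and the parent groups did not; the parent change of −0.43 (edgeR adjusted p = 0.0122) was −0.21 without parent control replicate 1. DNAJB4 had 7.73, 7.97 and 9.78 CPM in KO CPT libraries, against 12.3, 11.9 and 11.2 CPM in KO controls. In parent cells it had 10.46, 8.94 and 9.88 CPM with CPT, against 16.6, 10.1 and 12.2 CPM in controls, and these groups overlapped. DNAJB4 was called lower in both, at log2 −0.47 in KO cells and −0.42 in parent cells, yet 8.70% of its exon reads lay in stretches of its own, and by those the changes were −0.055 in KO cells and 0.17 in parent cells, neither called. DNAJA2 and DNAJA4 were not called in either response.

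BAG proteins release nucleotide from HSP70, and here they moved in both directions. BAG3, which is heat-inducible and serves selective autophagy, had 5.34, 4.63 and 5.24 CPM in KO CPT libraries, against 9.74, 7.03 and 7.92 CPM in KO controls. Parent libraries had 5.25, 5.44 and 5.09 CPM with CPT, against 9.33, 7.82 and 7.52 CPM in controls. Treated groups of both genotypes were below all controls, at log2 −0.70 ± 0.13 in KO cells (edgeR adjusted p = 0.00116) and −0.65 ± 0.13 in parent cells (edgeR adjusted p = 7.84e-04). BAG1 had 53.3, 55.7 and 54.7 CPM in KO CPT libraries, against 47.1, 49.6 and 47.4 CPM in KO controls. In parent cells BAG1 had 47.95, 49.3 and 50.7 CPM with CPT, against 36.6, 39.5 and 40.8 CPM in controls. It rose by log2 0.18 in KO cells (edgeR adjusted p = 0.0458) and 0.34 in parent cells (edgeR adjusted p = 2.78e-04). BAG4 and BAG5 rose in parent cells, by 0.28 and 0.37, with 0.035 and 0.17 in KO cells, where neither was called. All exon reads of BAG5 lay where KLC1 or the annotated gene RP11-894P9.2 overlaps it.

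BAG2, which inhibits the ubiquitin ligase STUB1, had 45.3, 47.0 and 48.6 CPM in KO CPT libraries, against 42.99, 42.18 and 43.1 CPM in KO controls. In parent libraries it held 28.3, 31.2 and 29.2 CPM with CPT, against 38.9, 34.3 and 32.7 CPM in controls. The KO libraries of both treatments were above every parent library. BAG2 fell in parent cells, at log2 −0.26 (edgeR adjusted p = 0.00873) and stood at 0.14 in KO cells (edgeR adjusted p = 0.224), a difference of 0.39 ± 0.100 (edgeR adjusted p = 0.0247) that leaving out KO CPT replicate 2, any KO control, or parent CPT replicate 1 or 3 ended. HSPBP1, an HSP70 exchange factor, was not called in either response.

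The mitochondrial chaperonin pair fell in parent cells. HSPD1 (HSP60) had 563, 574 and 513 CPM in KO CPT libraries, against 642, 637 and 636 CPM in KO controls. The parent values ran at 483, 479.9 and 479 CPM with CPT, against 745, 640.4 and 633 CPM in controls. The 3 treated parent libraries were the lowest of the 12, and HSPD1 fell, at log2 −0.22 in KO cells (edgeR adjusted p = 0.0450) and −0.49 in parent cells (edgeR adjusted p = 4.11e-05). HSPE1 (HSP10), its co-chaperonin, had 83.7, 91.3 and 74.8 CPM in KO CPT libraries, against 97.6, 96.7 and 96.7 CPM in KO controls. Parent libraries had 63.0, 60.9 and 65.8 CPM with CPT, against 151, 100.3 and 104 CPM in controls. HSPE1 fell by 1.88-fold in parent cells (edgeR adjusted p = 7.65e-05) and was not called in KO cells, at log2 −0.22 (edgeR adjusted p = 0.284). Without parent control replicate 1, HSPE1 was called lower in KO cells, at −0.21. The responses differed by 0.69 ± 0.18 (edgeR adjusted p = 0.0351), or 0.48 without parent control replicate 1, and leaving out a library of the other groups ended the call in 8 of 9 cases. HSPD1 and HSPE1 share a promoter region head to head, and all exon reads of HSPE1 lay where HSPD1 or the read-through gene HSPE1-MOB4 overlaps it. HSPD1 pseudogenes took 8.77% of the reads summed over HSPD1 and those copies. HSPA9 (mortalin) and the mitochondrial J protein DNAJA3 were not called in either response.

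Of the small heat shock and HSPB-named genes, HSPB1 (HSP27) had 15.6, 14.6 and 14.5 CPM in KO CPT libraries, against 17.5, 18.1 and 18.7 CPM in KO controls. Its parent values were 11.9, 10.45 and 10.9 CPM with CPT, against 21.0, 13.5 and 14.7 CPM in controls. HSPB1 fell in parent cells, at log2 −0.57 (edgeR adjusted p = 0.00195), or −0.34 without parent control replicate 1, and was not called in KO cells, at −0.28. Without that library HSPB1 was called lower in KO cells too. HSPB11 and HSPBAP1 were not called in either.

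The heat shock factors themselves did not pass the test in any comparison. HSF1, the master regulator of the response, had 46.7, 46.0 and 45.7 CPM in KO CPT libraries, against 49.7, 46.6 and 51.15 CPM in KO controls. In parent libraries it held 47.8, 47.8 and 49.0 CPM with CPT, against 40.8, 45.7 and 46.5 CPM in controls. The fitted log2 change was −0.091 ± 0.063 in KO cells (edgeR adjusted p = 0.388) and 0.12 ± 0.063 in parent cells (edgeR adjusted p = 0.154), where the groups did not overlap. HSF2 had 33.9, 33.6 and 28.5 CPM in KO CPT libraries, against 30.6, 33.9 and 34.4 CPM in KO controls. In parent cells it had 36.0, 39.5 and 36.7 CPM with CPT, against 47.1, 35.9 and 34.1 CPM in controls, and groups overlapped in both kinds of cells. HSF1 acts through the state of its protein, which these RNA data do not measure.

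The chaperonin TRiC folds actin and tubulin, and the fitted changes of its subunits lay in a narrow range. TCP1 had 439.7, 450.0 and 403 CPM in KO CPT libraries, against 479.5, 484 and 489.8 CPM in KO controls. The parent values ran at 359.6, 360.3 and 349.9 CPM with CPT, against 546, 447 and 441 CPM in controls. Treated parent libraries were below all other libraries, and the log2 change was −0.17 ± 0.077 in KO cells (edgeR adjusted p = 0.156) and −0.42 ± 0.077 in parent cells (edgeR adjusted p = 3.67e-04). Across the 7 subunits in the set, parent changes ran from −0.54 for CCT4 to −0.10 for CCT2, and all but CCT2 were called lower, CCT8 not so without parent control replicate 1 (−0.10). KO changes ran from −0.23 to −0.075, and CCT4 alone was called lower. Without parent control replicate 1, TCP1, CCT5, CCT7 and CCT8 were called lower in KO cells as well, and CCT2 and CCT3 were not. CCT6A, a subunit outside the set, was tested with the other pathway genes and was not called in any comparison. 20.4% of the exon reads of CCT4 lay in stretches of its own, and by those its changes were −0.20 in KO cells, not called, and −0.66 in parent cells. With scaling by library size alone the KO values of CCT2 and CCT3 were above 0.

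The difference between the responses was tested directly in the same model. By exon reads, 7 members had a KO response above the parent response and 2 had one below it, where 1.84% of all genes tested were above and 4.47% below (6.32% either way). The 7 were HSPA1A, HSPA1B, HSPA1L, HSPA8, HSPE1, BAG2 and PTGES3, and the 2 were HSPA6 and DNAJB2. HSPA1A, BAG2 and DNAJB2 were also higher in untreated KO cells, and the differences share those control libraries. Without parent control replicate 1, 15 members were above and 5 below, where 1241 of all genes were above and 2262 below, against 434 and 1053 with it. HSP90AA1 (0.28), AHSA1 (0.33) and HSPH1 (0.25) were among the 15. With scaling by library size alone, 17 were above and 2 below, and 46.3% of all called genes were above (29.2% with TMM).

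Intron reads come mostly from unspliced RNA and so gave a second readout of the same libraries. They could be tested for 44 members; HSPA1A, HSPA1B and HSPA6 have no introns, and HSPB1 had too few reads. After camptothecin 22 members fell and 0 rose in KO cells, where 9.05% of the 19908 genes tested by introns fell and 7.85% rose. In parent cells 26 fell and 4 rose, where 14.2% of all genes fell and 12.1% rose. Leaving out parent control replicate 1 gave 22 falls and 3 rises in parent cells. Of all genes, 2932 then fell and 2656 rose, against 2831 and 2400 with it. At an unadjusted p below 0.05 in edgeR's test, 4 members were higher and 26 lower in KO cells by introns, where 14.5% of all genes were higher and 14.3% lower. Of the members called lower in parent cells, 25 were so by both kinds of reads. Of the 22 KO calls, 19 were kept under every alternative run, all but HSP90AB1, DNAJA4 and HSPA9. The alternatives for introns did not include a fit on stretches no other gene overlaps. In KO cells 9 were lower by both and 13 were lower by introns without passing by exons: HSPA8, HSP90AA1, HSP90AB1, STIP1, AHSA1, FKBP4, ST13, DNAJA1, DNAJA4, HSPA9, HSPE1, TCP1 and CCT5. Of these 13, HSPA8, FKBP4, DNAJA1, DNAJA4 and HSPA9 also did not pass by exons without parent control replicate 1. The others were called lower by exons in that fit. Calls by both kinds of reads, or by introns alone, were not counted over all genes. The intron change was below the exon change for 33 of 44 members in KO cells (52.9% of all 17351 genes tested on both) and 32 of 44 in parent cells (51.5% of all). With the library sizes and TMM factors of the exon reads, 20 members fell and 2 rose in KO cells by introns, and 69% of all called genes were higher there (46.4% with their own factors).

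The largest gap between both kinds of reads was in HSPH1 and HSP90AA1. HSPH1 introns had 146, 137 and 155 CPM in KO CPT libraries, against 406, 398 and 371 CPM in KO controls. In parent cells they had 107, 113 and 112 CPM with CPT, against 518, 479.7 and 442 CPM in controls. Treated groups were far below all controls, 2.68-fold in KO cells (log2 −1.42 ± 0.073, edgeR adjusted p = 2.48e-11) and 4.34-fold in parent cells (log2 −2.12 ± 0.075, edgeR adjusted p = 1.57e-14), where exon reads gave 1.24-fold and 1.56-fold. HSP90AA1 introns had 78.3, 77.9 and 78.3 CPM in KO CPT libraries, against 218, 201 and 209 CPM in KO controls. Parent libraries had 90.1, 88.7 and 87.6 CPM with CPT, against 394, 332 and 325 CPM in controls. The fall was 2.68-fold in KO cells (edgeR adjusted p = 2.48e-11) and 3.95-fold in parent cells (edgeR adjusted p = 4.20e-14).

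HSPD1 introns showed the same order. They had 425, 451 and 373 CPM in KO CPT libraries, against 679.7, 664 and 688 CPM in KO controls. In parent cells HSPD1 introns had 369, 356 and 354 CPM with CPT, against 1021, 775 and 755 CPM in controls. The log2 changes were −0.70 ± 0.093 in KO cells (edgeR adjusted p = 1.75e-05) and −1.24 ± 0.094 in parent cells (edgeR adjusted p = 2.47e-09). HSPE1, HSPE1-MOB4 and MOB4 overlap HSPD1, so which gene its intron reads came from is uncertain. TCP1 introns had 58.5, 58.0 and 50.4 CPM in KO CPT libraries, against 86.6, 84.8 and 80.8 CPM in KO controls. Parent TCP1 introns had 53.8, 49.99 and 51.02 CPM with CPT, against 121, 99.7 and 98.7 CPM in controls. TCP1 introns fell in both, at log2 −0.60 in KO cells and −1.05 in parent cells. HSPA8 introns fell, at log2 −0.89 in KO cells (edgeR adjusted p = 8.03e-04), where its exon change was −0.025, with −1.10 in parent cells (edgeR adjusted p = 4.82e-05); its short introns host small nucleolar RNA genes of the SNORD14 group. DNAJB1 introns fell alike, at log2 −1.46 in KO cells and −1.44 in parent cells.

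**Figure D3:**
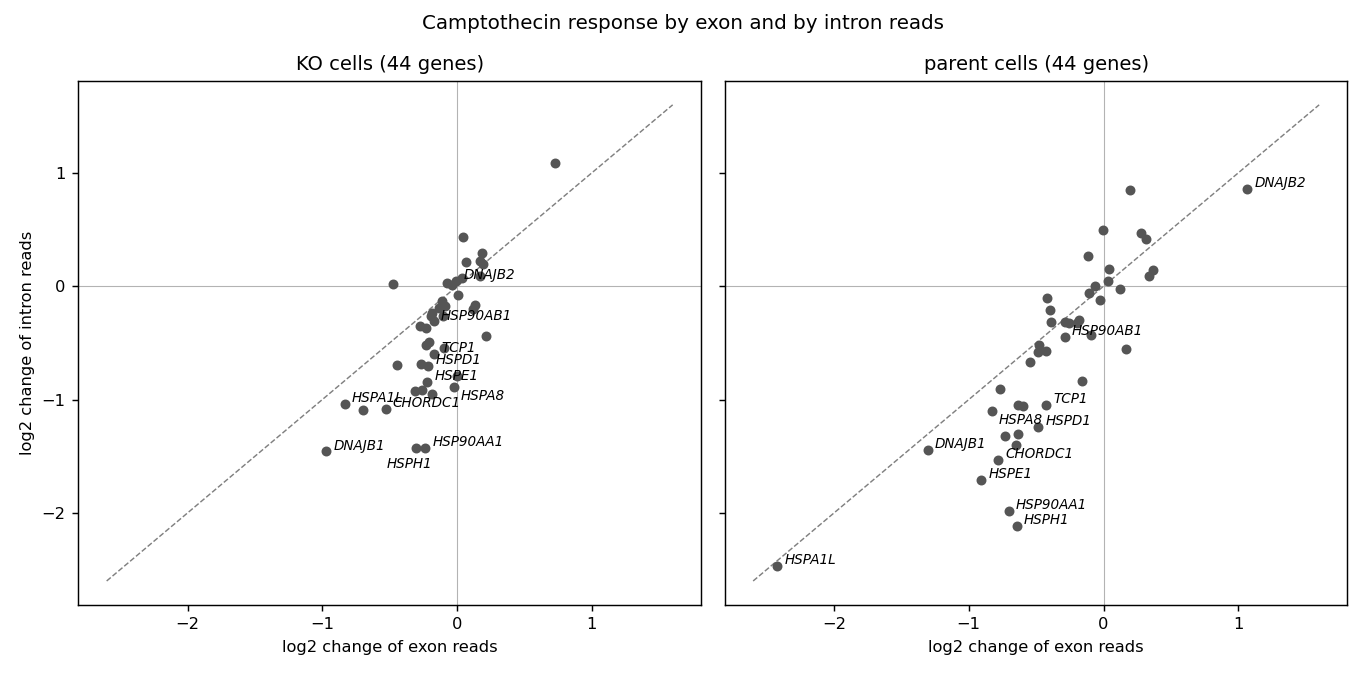
Log2 change after camptothecin by exon reads (x) and by intron reads (y) of the 44 genes with both, in KO cells and in parent cells; the dashed line marks equal change. In KO cells 33 points and in parent cells 32 points lie below the line, HSPH1 and HSP90AA1 farthest among the genes named.

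By introns, 8 members had a KO response above the parent response and 0 had one below it, where 3% of all genes were above and 2.81% below (5.82% either way); at an unadjusted p below 0.05 in edgeR's test, 12 were above and 3 below, where 10.2% of all genes were above and 8.55% below. They were HSPE1 (0.87), HSPH1 (0.69), HSP90AA1 (0.56), HSPD1 (0.54), CHORDC1 (0.45), TCP1 (0.45), HSPB11 (0.42) and ST13 (0.36). HSPH1 (edgeR adjusted p = 2.01e-04) and HSP90AA1 (edgeR adjusted p = 0.00177) were called under every alternative run. HSPE1 was the member called by both kinds of reads. It lies within HSPD1, so how intron reads were divided between these genes is uncertain. DNAJB2 introns had a difference of −0.81, which was not called (edgeR adjusted p = 0.253). Without parent control replicate 1, 10 were above and 2 below, where 1047 of all genes were above and 1010 below, against 598 and 560 with it.

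**Figure D4:**
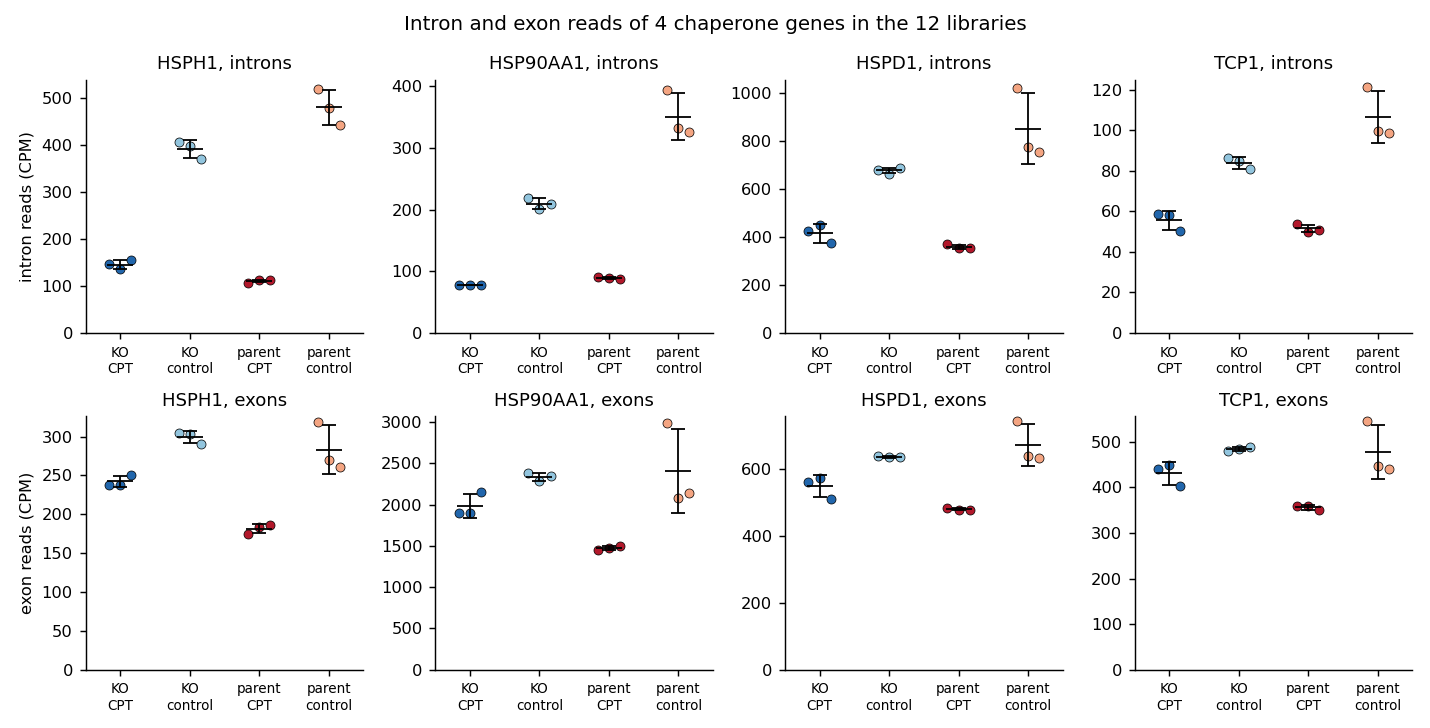
Intron reads (top) and exon reads (bottom) in CPM of HSPH1, HSP90AA1, HSPD1 and TCP1 in the 12 libraries, with points for libraries and bars for the mean and SD (n = 3); each axis starts at 0. The treated KO and parent libraries lie far below their controls for introns and closer to them for exons.

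Without drug, KO and parent cells differed in part of these genes by exon reads. In untreated KO cells 6 members (12.5%) were higher and 5 (10.4%) lower than in untreated parent cells. Of all genes tested, 8.26% were higher and 7.44% lower (15.7% either way). DNAJA4, a J protein, had 5.15, 7.15 and 5.89 CPM in KO controls, against 3.08, 3.19 and 3.06 CPM in parent controls, and 6.27, 6.25 and 8.57 CPM in KO CPT libraries, against 3.42, 3.03 and 4.05 CPM in parent CPT libraries. All KO libraries were above all parent libraries, and the untreated difference was 1.95-fold (log2 0.96 ± 0.16, edgeR adjusted p = 4.00e-04). 43.4% of its exon reads lay in stretches of its own, and intron reads gave log2 0.67 (edgeR adjusted p = 0.00270). HSPA1A (0.36, or 0.57 without parent control replicate 1), DNAJB2 (0.32), BAG1 (0.30), BAG2 (0.27) and FKBP4 (0.24) were higher too. The untreated groups of HSPA1A overlapped, and its near-identical copy HSPA1B had 0.0066, which was not called. 11.8% of the exon reads of FKBP4 lay in stretches of its own, and by those its untreated difference was 0.47. FKBP4 had 198, 194 and 195 CPM in KO controls, against 175, 162 and 159 CPM in parent controls, with no overlap, and the treated groups had 195, 199.9 and 193 CPM in KO cells, against 148, 151 and 145 CPM in parent cells. DNAJA4, BAG1 and FKBP4 were the 3 of the 11 called under every alternative run.

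The lower ones were HSPA4L, HSPA9, HSP90AB1, DNAJA3 and CHORDC1. HSPA9 had 294, 293 and 289 CPM in KO controls, against 486, 333 and 332 CPM in parent controls. With CPT it had 277, 286 and 252 CPM in KO cells, against 382, 381 and 369 CPM in parent cells. All KO libraries were below all parent libraries, at log2 −0.40 ± 0.11 untreated (edgeR adjusted p = 0.0276), or −0.19 without parent control replicate 1. HSPA4L had 6.202, 4.53 and 4.53 CPM in KO controls, against 7.03, 6.59 and 7.65 CPM in parent controls (log2 −0.48, edgeR adjusted p = 0.0173), and with CPT 5.71, 5.41 and 5.47 CPM in KO cells, against 6.44, 7.16 and 6.29 CPM in parent cells. DNAJA3 had 67.8, 71.9 and 75.5 CPM in KO controls, against 89.5, 82.3 and 79.1 CPM in parent controls, with log2 −0.22 (edgeR adjusted p = 0.0302), and with CPT 72.6, 76.0 and 67.6 CPM in KO cells, against 88.1, 86.1 and 84.1 CPM in parent cells. HSP90AB1 (−0.23) was −0.14 and CHORDC1 (−0.22) was no longer called without parent control replicate 1. In that fit 12 members were higher and 7 lower, where 2331 of all genes were higher and 1996 lower, against 1945 and 1752 with that library. HSPA1L, HSP90AA1 and DNAJA1 turned from below 0 to called higher. With scaling by library size alone 9 were higher and 1 lower, and 72.7% of all called genes were higher (52.6% with TMM). Summed epithelial and fibroblast markers, mainly EPCAM, were 7.88 to 8.17 CPM in KO controls and 1.94 to 2.68 CPM in parent controls, and the part of this in these differences was not tested.

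By introns the untreated KO cells were lower in 14 members and higher in 2, where 6.43% of all genes were lower and 8.17% higher. HSPE1 (−0.91), DNAJB1 (−0.82), HSP90AA1 (−0.74) and HSPA8 (−0.63) were the lowest. The fit without parent control replicate 1 had 13 members lower and 4 higher. Of all genes, 1197 were then lower and 1642 higher, against 1281 and 1626 with it. The same genes then stood at −0.64, −0.69, −0.65 and −0.38, in that order, and BAG3, HSPD1 and CCT4 were no longer called. HSP90AA1 introns were at 209.5 ± 8.49 CPM in KO controls and 350.4 ± 38.2 CPM in parent controls (SD, n = 3 each), with no overlap, where its exon reads were at 2337 ± 48.3 CPM and 2403 ± 510.2 CPM. DNAJB1 introns were at 34.0 ± 0.725 CPM in KO controls and 59.6 ± 8.63 CPM in parent controls, also with no overlap. FKBP4 and DNAJA4 were the 2 higher members by introns. Both comparisons with parent controls use the same 3 libraries, so a low intron level in untreated KO cells and a large intron fall in treated parent cells are not independent.

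Per kilobase of exon length, the order of levels was led by the same genes in all groups. HSPA8 was at 701 ± 39.8 CPM per kb in KO CPT libraries, 714 ± 3.96 in KO controls, 447 ± 2.99 in parent CPT libraries and 794 ± 206 in parent controls (SD, n = 3 each). HSP90AB1 and HSP90AA1 came next; in parent controls their 478 ± 54.7 and 458 ± 97.2 CPM per kb lay within each other's spread, while in parent CPT libraries HSP90AB1 was above, at 391 ± 5.78 against 281 ± 5.16. HSPD1 and CCT7 followed in every group. HSPA1B was at 92.2 ± 2.81 CPM per kb in KO controls and 91.8 ± 1.63 in parent controls, within the spread of PTGES3, and at 41.03 ± 1.503 in KO CPT libraries and 23.2 ± 0.443 in parent CPT libraries. HSPA2 was the lowest member in parent controls, at 0.357 ± 0.0951 CPM per kb, and HSPA6 the lowest in KO CPT libraries, at 0.255 ± 0.0331. Together the 48 members summed to 12180 to 12910 CPM in KO CPT libraries, 14090 to 14280 in KO controls, 10460 to 10620 in parent CPT libraries and 13770, 13800 and 18480 in parent controls, the last being replicate 1.

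Heat shock elements stood in a larger share of members' promoters than of all promoters. At least 3 alternating units means GAANNTTC or TTCNNGAA extended by a further unit at the same spacing, on either strand. Such a run stood in at least 1 promoter window of 8 of 42 member genes (19.05%), against 0.6079% of 27305 genes. Some genes, such as HSP90AA1 and DNAJB1, had several annotated starts, each with its own window. Counted by windows, the shares were 13.11% of 61 for members and 0.4898% of 35116 for all genes. Windows with 2 units (GAANNTTC or TTCNNGAA), which include those with 3, were found for 22 of 42 (52.38%), against 16.18% of all. Counted by windows, these shares were 37.7% and 13.49%. TATAAA was found for 19.05% of members and 13.99% of all genes, and CCAAT for 38.1% and 39.72%. The 8 genes with 3 units were HSPA6, HSPA8, HSP90AA1, HSP90AB1, CHORDC1, DNAJA1, DNAJB6 and HSPD1, of which 4 fell in KO cells and all 8 in parent cells. Of the 34 without, 11 fell and 1 rose in KO cells, and 20 fell and 3 rose in parent cells; HSPA1A, HSPA1B and DNAJB1 are among these. Of all genes tested, 9.28% fell in KO cells and 17.1% in parent cells. Falls among all genes with and without 3 units were not counted, and a link of the element to the response was not tested. The match is a description of letters and shows no binding. HSPA1L shares its 2-unit match with HSPA1A, as the genes start back to back. Windows of 150 bases before the gene start follow, with 2-unit matches in capitals, for 2 HSP90 class genes and DNAJB1 on the minus strand (HSP90AA1, chr14:102087045-102087194; CHORDC1, chr11:90223050-90223199; DNAJB1, chr19:14518398-14518547) and for the riser DNAJB2 on the plus strand (chr2:219279216-219279365), which has no such match.
HSP90AA1: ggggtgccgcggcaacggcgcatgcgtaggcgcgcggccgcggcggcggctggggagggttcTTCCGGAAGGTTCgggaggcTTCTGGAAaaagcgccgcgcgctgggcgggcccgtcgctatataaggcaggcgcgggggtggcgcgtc
CHORDC1: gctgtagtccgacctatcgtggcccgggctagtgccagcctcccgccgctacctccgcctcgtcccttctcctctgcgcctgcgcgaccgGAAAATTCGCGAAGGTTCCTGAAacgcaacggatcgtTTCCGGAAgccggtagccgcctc
DNAJB1: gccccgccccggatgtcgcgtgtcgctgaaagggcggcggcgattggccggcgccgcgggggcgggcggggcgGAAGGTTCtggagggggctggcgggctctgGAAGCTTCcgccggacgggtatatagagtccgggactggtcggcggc
DNAJB2: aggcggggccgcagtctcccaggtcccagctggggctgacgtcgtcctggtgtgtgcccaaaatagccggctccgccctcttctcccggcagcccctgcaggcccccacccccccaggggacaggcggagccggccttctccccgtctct
CHORDC1 showed the longest run of units, HSP90AA1 a 3-unit run and a separate pair, and DNAJB1 2 separate pairs.

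Other genes of chaperone pathways were read from the same fit. Of 64 listed, 60 were tested, as HSPA12A, CRYAB, HSPB2 and HSPB8 had too few reads. In KO cells 11 fell and 2 rose, where 9.28% of all genes tested fell and 7.3% rose. In parent cells 20 fell and 7 rose, where 17.1% of all genes fell and 16.8% rose. The largest called change of these genes in each response was in SERPINH1, the collagen chaperone, at 1.13 ± 0.222 CPM in KO CPT libraries and 2.54 ± 0.498 CPM in KO controls, and 1.29 ± 0.257 CPM in parent CPT libraries and 2.94 ± 0.258 CPM in parent controls (SD, n = 3 each). Its log2 change was −1.16 in KO cells (edgeR adjusted p = 0.00105) and −1.19 in parent cells (edgeR adjusted p = 2.28e-04). The chaperones of the endoplasmic reticulum HSP90B1, HSPA5 and SIL1 fell in both as well, at log2 −0.49, −0.34 and −0.69 in KO cells and −0.86, −0.81 and −0.86 in parent cells. HSPA12B, a distant HSP70 relative, rose in KO cells (log2 0.83, edgeR adjusted p = 0.0271) and had 0.45 in parent cells, which was not called (edgeR adjusted p = 0.177). GRPEL2, a mitochondrial exchange factor, rose by 0.22 in KO cells and 0.65 in parent cells, a difference of −0.43 (edgeR adjusted p = 0.00838). For the difference of responses 1 gene was above, DNAJC3 (0.33), and 3 below: DNAJB5 (−0.66), GRPEL2 and LONP1 (−0.31). Of all genes tested, 1.84% were above and 4.47% below. In untreated KO cells DNAJB5 was higher (0.50) and 7 genes were lower, where 8.26% of all genes were higher and 7.44% lower.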

How the data were processed

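RNA of 12 libraries was sequenced in 4 groups of 3. The authors deposited, per the file headers, whole-number read counts over exons, introns and the whole gene, with lengths in bases and TPM values, which were not used. Per the submitters' processing notes, hg19, Trim Galore 0.6.2, Trimmomatic 0.39, STAR 2.5.4a and Picard 2.9.2 were used; the deposited file names mark duplicates as removed. Counting tool, annotation and strand: not given in the sources used here. Here deposited counts were filtered (filterByExpr), scaled by TMM and tested with edgeR 4.0.16 (quasi-likelihood, robust, 1 mean per group, all 12 libraries; limma 3.58.1, R 4.3.3), with Benjamini-Hochberg adjustment over all genes; SE are the log2 change over the root of F. Up to 32 pseudoautosomal Y copies per table were left out. Intron counts were filtered and scaled on their own. Alternatives were other size factors, DESeq2 1.42.0, no filter, only the groups compared, total reads, unique stretches, a replicate block and leaving out each library. The common dispersion was 0.0137. The members and lists were chosen with earlier results of these data known. Values in every library are given for the main heat shock genes of each class and for any other member among the 10 largest called changes of a comparison at a mean of 1 CPM or more; the rest are given by count, range and fitted change, and pathway genes by at most the 4 largest called changes per comparison. The fitting steps were tested on simulated data.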

Additional observations from a re-analysis of the deposited data

Results flagged for a closer look

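The response to camptothecin differed between KO and parent cells for 9 members by exon reads and 8 by intron reads, each by edgeR's test of the difference itself at an adjusted p below 0.05 over all genes. Values are the KO response minus the parent response on the log2 scale.

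By exon reads, HSPA1A (1.21), HSPA1B (0.82), HSPA1L (1.59), HSPA8 (0.80), HSPE1 (0.69), BAG2 (0.39) and PTGES3 (0.34) lay above 0. HSPA6 (−1.04) and DNAJB2 (−1.07) lay below 0. HSPA1A, HSPA1B, HSPA6, HSPA8 and DNAJB2 were called under every alternative in which each could be tested; HSPA6 had no exon reads in stretches of its own.

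By intron reads, HSPE1 (0.87), HSPH1 (0.69), HSP90AA1 (0.56), HSPD1 (0.54), CHORDC1 (0.45), TCP1 (0.45), HSPB11 (0.42) and ST13 (0.36) lay above 0. HSPH1 and HSP90AA1 were called under every alternative run.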

How the results depend on the processing

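Counts of members are given as higher and lower. In the KO response by exon reads (2 and 15), library size alone gave 9 and 8, only the groups compared gave 5 and 27, and no filter and total reads over the gene gave 0 higher; the calls over all genes numbered 5967 on library size alone and 5932 on the 2 groups alone, against 3902. For the difference of responses (7 and 2), library size alone gave 17 higher, no filter 14, DESeq2 13, and stretches no other gene overlaps 1 lower, where HSPA6 could not be tested. In untreated cells (6 and 5), the number lower was 1 by library size alone, 11 without a filter, 0 with only the groups compared and 3 by total reads, and all genes called were 2104 with only the groups compared, against 3697. By introns with the library sizes of the exon reads, the KO response had 2 higher and the difference 602 genes called, against 1158; without a filter the untreated comparison had 1 higher. The replicate numbers did not pair the samples (correlations of same-numbered libraries −0.0323 to 0.0319), and the replicate block gave 1 higher in the KO response by exon reads.

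Leaving out 1 library gave, for higher, lower and all genes called by exons, 0 to 5, 8 to 27 and 2519 to 6640 in the KO response, 5 to 6, 26 to 32 and 6445 to 8833 in the parent response, 3 to 15, 2 to 5 and 903 to 3503 for the difference, and 3 to 12, 0 to 9 and 2385 to 4327 untreated. By introns they were 0 to 2, 20 to 26 and 2199 to 4840 in the KO response, 2 to 5, 22 to 28 and 3965 to 5700 in the parent response, 2 to 10, 0 to 2 and 690 to 2057 for the difference, and 1 to 4, 9 to 15 and 1978 to 3354 untreated. Among changes called in at least 1 of the 2 fits, signs turned for DNAJB4 in the parent response (0.17 in stretches no other gene overlaps) and, without parent control replicate 1, for HSPA9 in the parent response (0.19) and for HSPA1L (0.38), HSP90AA1 (0.15) and DNAJA1 (0.20) in untreated cells. The other ends of their ranges over left-out libraries were −0.12, −0.28, −0.14 and −0.13. The cause was not tested. The difference of responses needs all 4 groups, so it has no fit of only the groups compared. Members with few reads, such as HSPA6 and HSPA2, are the least precise.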
